A study of Mus musculus with 6 samples.

Results

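The Myt zinc finger family was examined in whole mouse pancreas at embryonic stage E12.5. Its 3 members, Myt1, Myt1l and St18, of 18193 genes measured, were found as the probe sets whose platform annotation gives only that symbol. There were 9 such probe sets among 45101 on the array, 2 for Myt1, 5 for Myt1l and 2 for St18. All 9 are accounted for below, and no filter on low values was applied. Values are deposited log2 levels made with RMA (robust multi-array average: background correction, normalization across arrays and a summary per probe set), so a difference of 1 is a doubling on the array. The study set 3 Hox6 null pancreas samples against 3 wild type controls, each a biological replicate on an array of its own. Hox6 stands for the paralogous homeobox genes Hoxa6, Hoxb6 and Hoxc6. All embryos are labelled strain Bl6 and were untreated. The labels do not give the alleles behind the Hox6 null genotype, the number of embryos or litters in a sample, or their sex. The family was chosen by the difference between null and control arrays that an earlier reading of the same values had shown for Myt1, so every difference between null and control arrays given here for its members is a description.

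Myt factors are transcription factors that bind DNA through clusters of CCHC zinc fingers, with the letters AAGTT at the core of their site. In the mouse pancreas Myt1 is switched on in endocrine progenitors together with Neurog3, the factor that commits progenitors to the islet lineage, and the family is used again in neurons. Myt1l is known from neurons, where in mouse it represses genes of other lineages, and St18, also called Myt3, is found in both islets and neurons. Myt factors can repress their targets with Sin3 and histone deacetylase complexes, and Notch effector genes are among the targets described.

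The RefSeq table of gene starts held 3 promoter windows for Myt1 and 5 for Myt1l, each reaching from 250 bases before an annotated start to 50 bases after it (build GRCm38.p6, plus strand). A window for each of these genes is shown because they are the places where the family's own site, AAGTT, occurs more than once. Capitals mark AAGTT or its reverse complement, and the annotated start is base 251. The Myt1 window lies on chromosome 2 at the 5′ end of the gene (chr2:181763332-181827775), and the Myt1l window lies within that gene (chr12:29527590-29923216).
Myt1, chr2:181763082-181763381: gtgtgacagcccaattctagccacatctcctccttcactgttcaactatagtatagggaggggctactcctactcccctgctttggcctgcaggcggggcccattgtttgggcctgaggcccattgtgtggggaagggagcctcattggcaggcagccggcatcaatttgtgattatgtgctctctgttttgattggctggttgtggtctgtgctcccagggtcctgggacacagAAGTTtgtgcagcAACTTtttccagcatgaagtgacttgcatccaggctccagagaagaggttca
Myt1l, chr12:29534972-29535271: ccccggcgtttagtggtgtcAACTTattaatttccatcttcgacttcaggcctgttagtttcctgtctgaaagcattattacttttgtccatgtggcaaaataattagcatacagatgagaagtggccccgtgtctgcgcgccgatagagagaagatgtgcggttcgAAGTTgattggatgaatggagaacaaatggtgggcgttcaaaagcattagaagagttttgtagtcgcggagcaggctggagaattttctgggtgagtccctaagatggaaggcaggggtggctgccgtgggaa
In the Myt1 window the site begins at base 236 on the plus strand and at base 249 on the minus strand, so the second copy spans the annotated start. The same letters occurred once in each of the other Myt1 windows, and in the Myt1l gene once in window 4 and in none of windows 1, 2 and 3. Of all 32851 windows in the table, 39.3% held AAGTT on either strand and 11.4% held at least 2 copies. The E-box letters CANNTG are recognised by bHLH factors such as Neurog3. They were absent from the Myt1 window shown and occurred 3 times in the Myt1l window shown. The Myt1 windows not shown, 2 and 3, held 2 and 1 copies of CANNTG. Myt1l windows 1, 2, 3 and 4 held 3, 1, 0 and 1 copies. CANNTG occurred in 72.3% of all windows. The motifs do not overlap in either window, and a match is a description of the letters alone.

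Across the series the 6 arrays were close to each other in scale, with medians of 5.97 to 6.02 on the log2 scale. Pearson correlations across probe sets were 0.980 to 0.987 between null arrays and 0.979 to 0.990 between a null and a control array. Between control arrays they were 0.994 to 0.995, so the null samples varied more among themselves. The first principal component, the axis of largest variance between arrays, held 46.6% of it. Null replicates 1, 2 and 3 lay on it at 61.7, 36.0 and -14.9, and the control arrays at -30.0 to -22.9. Hoxb6, a targeted gene, read 8.25 to 8.91 in null and 8.78 to 9.36 in control arrays, and Hoxc6 read 6.06 to 6.23 in null and 5.97 to 6.08 in control arrays. Where these probe sets lie relative to the disrupted sequence is not given in the sources used here, so they check nothing about the genotype. The brightness of a probe set depends on its probes as well as on its transcript, so levels are compared here between arrays and never between genes.

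Myt1 was higher in all 3 null arrays than in any control array, and it was the member with the widest separation. Its brighter probe set, 1422773_at, read 6.44, 6.35 and 7.00 in null replicates 1, 2 and 3, against 5.66, 5.13 and 5.45 in control replicates 1, 2 and 3. Null replicate 3 was the highest array and control replicate 2 the lowest. The gap between the lowest null and the highest control array was 0.69, larger than the spread within either group. The means were 6.60 ± 0.35 in null and 5.41 ± 0.27 in control arrays (SD, n = 3 each), a difference of 1.19 ± 0.21 (SE) on the log2 scale, or 2.28-fold.

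The other Myt1 probe set, 1439365_at, pointed the same way at a level near background. It read 3.62, 4.14 and 3.92 in null replicates 1, 2 and 3, against 3.47, 2.87 and 3.32 in the controls. The groups did not overlap, with a gap of 0.15, and the difference was 0.67 ± 0.20 (SE). Control replicate 2 was again the lowest array, whereas null replicate 2 and not null replicate 3 was the highest. The probe sets of Myt1 thus separated the groups alike and ordered the null arrays differently. In whole organs, more cells that express Myt1 and more Myt1 RNA per cell cannot be told apart.

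Myt1l stayed at the dim end of the array in every sample. Its brightest probe set, 1421175_at, read 3.65, 3.61 and 3.55 in null replicates 1, 2 and 3, against 3.20, 3.22 and 3.25 in the controls. The arrays of a group lay close together and the groups did not overlap, with means of 3.60 ± 0.05 in null and 3.22 ± 0.03 in control arrays (SD, n = 3 each). The difference was 0.38 ± 0.10 (SE). Of the other 4 probe sets, 1436483_at and 1429738_at had every null array above every control array by margins of 0.04 and 0.005, and their differences were 0.28 ± 0.13 and 0.21 ± 0.11 (SE). The groups overlapped for 1430599_at and 1460111_at, which differed by 0.10 ± 0.14 and 0.06 ± 0.20 (SE). Over all 5 probe sets the values lay between 2.49 and 3.65.

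St18 read higher on average in the null arrays, led by a different array in each probe set. Probe set 1436793_at read 5.44, 4.66 and 4.55 in null replicates 1, 2 and 3, against 4.29, 4.41 and 4.61 in the controls. Null replicate 1 stood alone above the rest, and null replicate 3 lay below control replicate 3. The difference was 0.45 ± 0.23 (SE), smaller than the SD of the null arrays (0.48), and without null replicate 1 it was 0.17 ± 0.13 (SE). Probe set 1455123_at read 4.66, 5.26 and 4.57 in null replicates 1, 2 and 3, against 4.40, 3.97 and 4.34 in the controls. Here null replicate 2 was the highest and the groups did not overlap, with a gap of 0.17 and a difference of 0.59 ± 0.21 (SE).

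**Figure D1:**
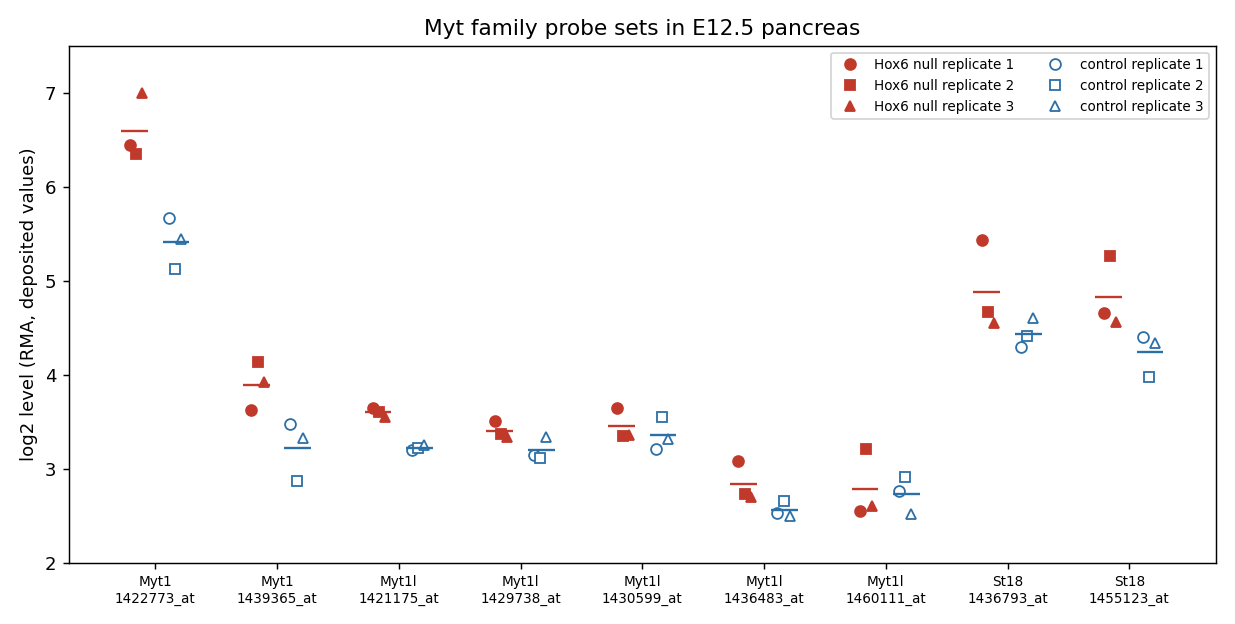
Log2 level (vertical axis, deposited RMA values) of the 9 Myt family probe sets in each array, with Hox6 null arrays filled and left of the open control arrays, and bars at the mean of 3 arrays. Myt1 1422773_at separates the groups by 0.69, while the 5 Myt1l probe sets stay between 2.49 and 3.65 in all arrays.

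As a family, all 9 probe sets had a positive difference, and 6 of 9 had every null array above every control array. Over the whole array 57.3% of probe sets had a positive difference and 12.1% were separated in this way. The share depended on brightness. Among the dimmest 25% of probe sets, with mean levels up to 4.22, the median difference was 0.13 and 17.3% were separated with the null arrays higher, against 2.40% with them lower. Among the brightest 25% these shares were 9.42% and 16.5%, and the median difference was -0.03. The 5 Myt1l probe sets and 1439365_at of Myt1 belong to the dimmest class. The class of 1422773_at of Myt1 had a median difference of -0.02. Myt1 was chosen by its difference, so nothing is read from its distance to that median.

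With the arrays normalized to a common distribution once more, 3 of the 9 remained separated, namely 1422773_at of Myt1 (1.17), 1421175_at of Myt1l (0.27) and 1455123_at of St18 (0.51). The difference of 1439365_at of Myt1 was then 0.56 with overlapping groups, and 1430599_at and 1460111_at of Myt1l turned to -0.01 and -0.05. None of the 9 passed limma after Benjamini-Hochberg adjustment over all probe sets, where 0.00222% of probe sets passed (1 of 45037). At an unadjusted p under 0.05, 4 of 9 passed, against 15.0% of all probe sets (limma). Without null replicate 3 the adjusted count was 1 of 9, namely 1422773_at of Myt1 with a difference of 0.98 ± 0.17 (SE), and 2.02% of all probe sets passed with the null arrays higher. As Myt1 was chosen by this same difference, nothing is read from the counts of members that passed.

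Marker lists of the cell types in and around the organ were set beside the family, each as the mean log2 level of its genes in an array minus the mean of the 3 control arrays. Epithelial markers, such as the claudin genes Cldn3 and Cldn4, stood at 0.89, 0.72 and 0.03 in null replicates 1, 2 and 3, against -0.02 to 0.02 in control arrays. In the same terms Myt1 stood at 1.03, 0.94 and 1.59 in null replicates 1, 2 and 3, against -0.29 to 0.25 in control arrays. By 1422773_at, Myt1 was highest in the null array whose epithelial level was closest to the controls, while by 1439365_at it was highest in null replicate 2. St18, at 1.004, 0.23 and 0.12 by 1436793_at, was highest in the null array with the highest epithelial level, though by 1455123_at null replicate 2 was highest. Myt1l by 1421175_at, at 0.43, 0.39 and 0.33, kept the same order of null arrays with much smaller steps. The epithelial mean of each array was also entered in the fit as a covariate. The difference was then 1.57 ± 0.23 (SE) for Myt1, 0.32 ± 0.12 for Myt1l and 0.02 ± 0.26 for St18. Control arrays spanned only -0.02 to 0.02 in epithelial level, so the slope of this fit rests mainly on the null arrays. The fit used 1 probe set per gene, and epithelial level itself differed between the groups. Nothing about cell mixture is read from these differences.

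The mean level of the 20 epithelial genes was 8.19 to 9.05 in null and 8.14 to 8.18 in control arrays, with 18 of 20 higher on average in the null arrays. The list of hormone and secretory granule genes of endocrine cells had 14 of 14 measured genes higher on average. Every null array lay above every control array for 0 of the 14, against 12.2% of all genes. The mean level of this list was 7.06 to 7.73 in null and 6.80 to 7.29 in control arrays. Its shifts of 0.69, 0.55 and 0.02 in null replicates 1, 2 and 3 ran with those of the epithelium. Neuron markers were instead highest in null replicate 3, at 0.26, 0.08 and 0.52 in null replicates 1, 2 and 3, with 15 of 19 measured genes higher on average and mean levels of 6.45 to 6.88 in null and 6.32 to 6.44 in control arrays. The neuronal tubulin gene Tubb3 read 6.49, 6.62 and 8.17 in null replicates 1, 2 and 3, against 5.81 to 6.24 in control arrays. Null replicate 3 thus stood out for Tubb3, as it did for Myt1 by its brighter probe set. Elavl3, another neuron marker, was instead highest in null replicate 1, at 6.21, 5.59 and 5.97 in null replicates 1, 2 and 3. Among the 19 measured neuron genes, null replicate 3 was the highest array for 10 and the lowest null array for 5. The part of neurons in the Myt1 level of that array was not tested.

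The mean of the mesenchyme markers was lower in all 3 null arrays, at -0.63, -0.49 and -0.41. Mean levels were 9.18 to 9.40 in null and 9.76 to 9.89 in control arrays, and 14 of 15 genes were lower on average. Every null array lay below every control array for 9 of the 15, against 11.7% of all genes. Null replicate 3 was instead the highest array for 2 genes. There Barx1 read 10.70, against 9.52 to 10.02 in control arrays, and Foxf1 read 8.80, against 8.33 to 8.74. The decorin gene Dcn, a matrix proteoglycan of mesenchyme, read 8.41, 8.49 and 8.42 in null replicates 1, 2 and 3, against 9.21 to 9.46 in control arrays. Glia and neural crest markers lay on both sides of the controls, at -0.05, -0.05 and 0.08, with 5 of 8 measured genes higher on average and mean levels of 6.50 to 6.63 in null and 6.51 to 6.58 in control arrays. The part of these mixtures in the values of the family was not tested.

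**Figure D2:**
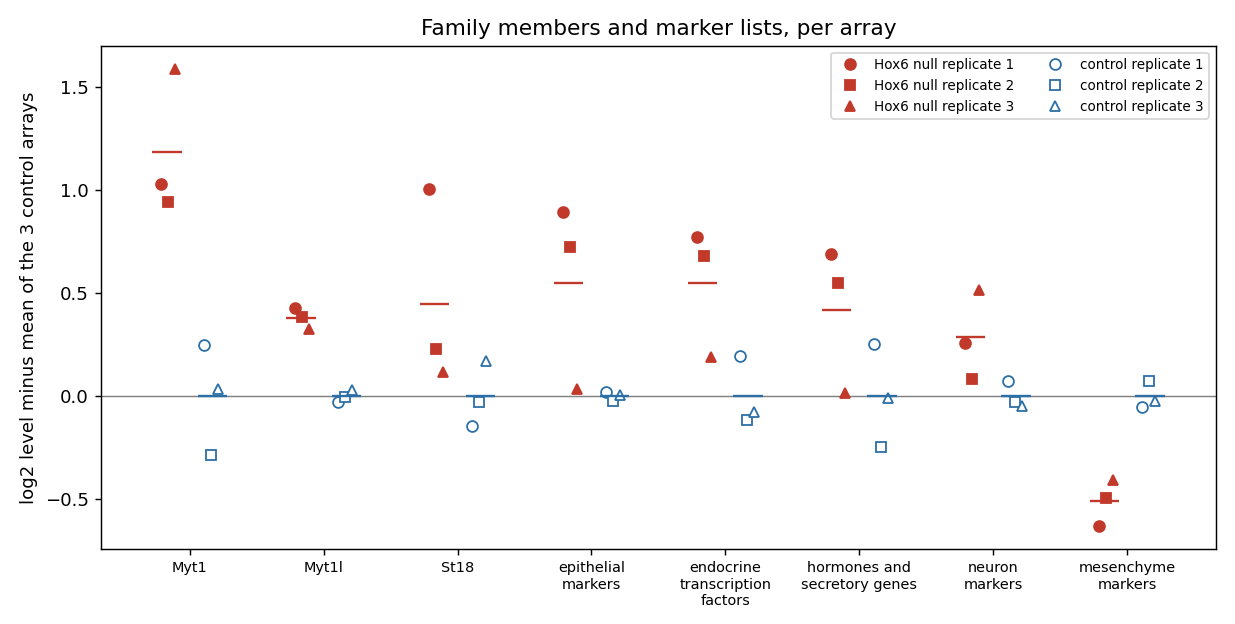
Log2 level of Myt1, Myt1l and St18, each by its brightest probe set, and mean log2 level of 5 marker lists, minus the mean of the 3 control arrays (vertical axis), with Hox6 null arrays filled and left of the open control arrays and bars at the mean of 3 arrays. Null replicate 3 is the highest array for Myt1 (1.59) and neuron markers (0.52) and lies at 0.03 for epithelial markers.

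Genes that work with or beside Myt1 were described from lists, and 0 of the 132 measured list genes passed limma over all genes, where 0.0715% of genes passed (13 of 18193), 0.00550% with the null arrays higher and 0.0660% with them lower. At an unadjusted p under 0.05 17.0% of all genes passed, and the median difference over all genes was 0.03. Of the marker lists, an unadjusted p under 0.05 was reached by 9 of 20 epithelial, 5 of 14 hormone and granule, 4 of 19 neuron, 5 of 15 mesenchyme and 4 of 8 glia and neural crest genes. In the endocrine transcription factor list, 11 of 12 measured genes were higher on average with a median difference of 0.58, and 6 of 12 had an unadjusted p under 0.05. Neurog3 read 6.79, 6.82 and 6.12 in null replicates 1, 2 and 3, against 6.19, 5.64 and 5.97 in the controls, so that null replicate 3 lay below control replicate 1. The difference was 0.64 ± 0.22 (SE; adjusted p = 0.246, limma). Neurod1, a downstream bHLH factor, read 7.74, 7.70 and 6.43 in null replicates 1, 2 and 3, against 6.46 to 7.06 in control arrays, with null replicate 3 the lowest of all 6 arrays.

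Of the 12 endocrine transcription factors 6 had every null array above every control array, against 12.2% of all genes. Among them was Insm1, a zinc finger factor of endocrine precursors, at 7.00, 7.09 and 6.77 in null and 6.50, 5.86 and 6.43 in control replicates 1, 2 and 3. Its difference was 0.69 ± 0.19 (SE; adjusted p = 0.186, limma). Nkx6-1 and Nkx2-2, homeobox factors of progenitors and endocrine cells, differed by 0.92 ± 0.25 and 0.77 ± 0.22 (SE), and Mnx1, a homeobox factor of the early bud and beta cells, by 1.10 ± 0.31 (SE). In each of these 3 genes null replicate 1 was the highest array and null replicate 3 the lowest of the null arrays, as it was for 10 of the 12 genes. Null replicate 3 was the highest array for the other 2, Isl1 and Runx1t1, named after their values were seen, as it was for Myt1 by 1422773_at. Relative to the mean of the endocrine transcription factors, Myt1 by 1422773_at stood higher by 0.26, 0.26 and 1.40 in null replicates 1, 2 and 3. In control arrays it stood at -0.17 to 0.12. Myt1 was chosen by its difference, so nothing is read from its distance to these factors. The other Myt1 probe set, 1439365_at, ordered the null arrays differently and was not set against the list.

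Of the factors that act with or beside Myt factors in neurogenesis, all 7 measured genes were higher on average in the null arrays. The median difference was 0.54, and Rest differed least, by 0.01 ± 0.09 (SE). An unadjusted p under 0.05 (limma) was reached by 3 of 7. Pou3f2, a POU factor used with Myt1l to convert mouse fibroblasts to neurons, read 3.83, 3.98 and 4.15 in null replicates 1, 2 and 3, against 3.31 to 3.65 in control arrays, a difference of 0.54 ± 0.13 (SE; adjusted p = 0.172, limma). Neurog2, a proneural bHLH factor, read 2.91, 2.93 and 3.47 in null replicates 1, 2 and 3, against 2.51 to 2.63 in control arrays. Pou3f2 and Neurog2 lay in the dimmest 25% of probe sets, where 17.3% were separated with the null arrays higher and 2.40% with them lower. The bHLH factor genes Neurod2 and Neurog1 read 5.19, 4.92 and 4.72, and 5.78, 5.38 and 5.36, in null replicates 1, 2 and 3, against 4.35 to 4.71 and 5.22 to 5.28 in control arrays. Pou3f3, a POU factor chosen after its values were seen, read 6.61 in null replicate 3 and 4.15 to 4.35 in the other 5 arrays. Null replicate 3 was the highest array for 4 of the 7 genes and the lowest null array for the other 3, Neurod1, Neurod2 and Neurog1.

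The corepressor genes had no common direction, with 4 of 9 measured genes higher on average and a median difference of -0.0005, and 2 of 9 had an unadjusted p under 0.05. Sin3b, a scaffold of a histone deacetylase complex, read 10.30 to 10.41 in null and 10.26 to 10.44 in control arrays. Sin3a differed by 0.27 ± 0.10 (SE) and the corepressor gene Rcor1 by -0.33 ± 0.11 (SE), each with the same sign in 2 of its 3 probe sets. In the Notch list 10 of 15 genes were higher on average, with a median difference of 0.25, and 4 of 15 had an unadjusted p under 0.05. The ligand genes Dll1 and Dll3, which mark cells leaving the progenitor state, differed by 0.49 ± 0.12 and 0.67 ± 0.19 (SE) with separated arrays, and the effector gene Heyl by -0.57 ± 0.15 (SE). Hes1 and Hes5, effectors that Myt factors can repress, had overlapping arrays and differed by 0.31 ± 0.20 and 0.22 ± 0.15 (SE). Stress response genes, which Myt factors restrain in mouse beta cells, had 7 of 14 genes higher on average and a median difference of -0.04, and 2 of 14 had an unadjusted p under 0.05, Ddit3 at 0.31 ± 0.12 and Atf3 at -0.32 ± 0.13 (SE).

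These counts shifted without null replicate 3, where 4.42% of all genes passed limma with the null arrays higher and 4.02% with them lower. In that fit 5 of 12 endocrine transcription factors and 15 of 20 epithelial markers passed, all higher, and 6 of 15 mesenchyme markers passed, all lower. Of the Notch list 3 passed as higher and 1 as lower, of neuron markers and of the neurogenesis factors 1 gene each passed as higher, and of the corepressor and stress lists 0 passed. The same fit gave 6 of 14 hormone and granule genes as higher, and 2 glia and neural crest markers as higher and 3 as lower.

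The array profile of Myt1 was also set against every other gene with a mean level above the median of genes. Likeness was the root mean square distance between log2 profiles over the 6 arrays, each centred on its own mean, and 0 would be an identical profile. The 5 nearest of 9096 genes were Rprm (0.213), Hprt (0.236), Fzd5 (0.281), Msi1 (0.330) and Id4 (0.335), against a median distance of 0.67 over all candidates. Rprm, a cell cycle regulator induced by p53, read 9.53, 9.54 and 9.81 in null replicates 1, 2 and 3, against 8.54, 8.57 and 8.38 in the controls. It is the single gene that passed limma with a higher level in the null arrays (difference 1.13 ± 0.12, SE; adjusted p = 0.0417). This call was lost after repeated quantile normalization (limma, adjusted p = 0.0558), median centring (0.0507) or with the replicate block (0.123), and when any array other than null replicate 3 was left out (0.0849 to 0.252); without null replicate 3 it was 0.00868. Null replicate 3 was the highest array for all 5 genes, as for Myt1. These genes were chosen by likeness to Myt1, which was itself chosen by its difference. Higher values in their null arrays are favoured by that choice, so the differences of these genes are descriptions.

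Hprt, a purine salvage enzyme gene, read 9.88, 10.17 and 10.35 in null replicates 1, 2 and 3, against 9.72, 8.88 and 9.04 in the controls, and shared with Myt1 the low value of control replicate 2. Fzd5, a Wnt receptor gene, read 7.79, 7.58 and 8.71 in null replicates 1, 2 and 3, against 7.07 to 7.23 in control arrays. Msi1, an RNA-binding protein gene of neural and epithelial progenitors, differed by 0.64 ± 0.14 (SE), and its other probe sets by 0.06 and 0.13. Id4, an inhibitor of bHLH factors, differed by 0.66 ± 0.13 (SE), whereas its other probe sets differed by -0.40 and -0.03. Myt1, at a mean level of 6.01, lay below the median level of genes (6.81), as did Myt1l and St18. Nearest genes were named for Myt1 alone.

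**Figure D3:**
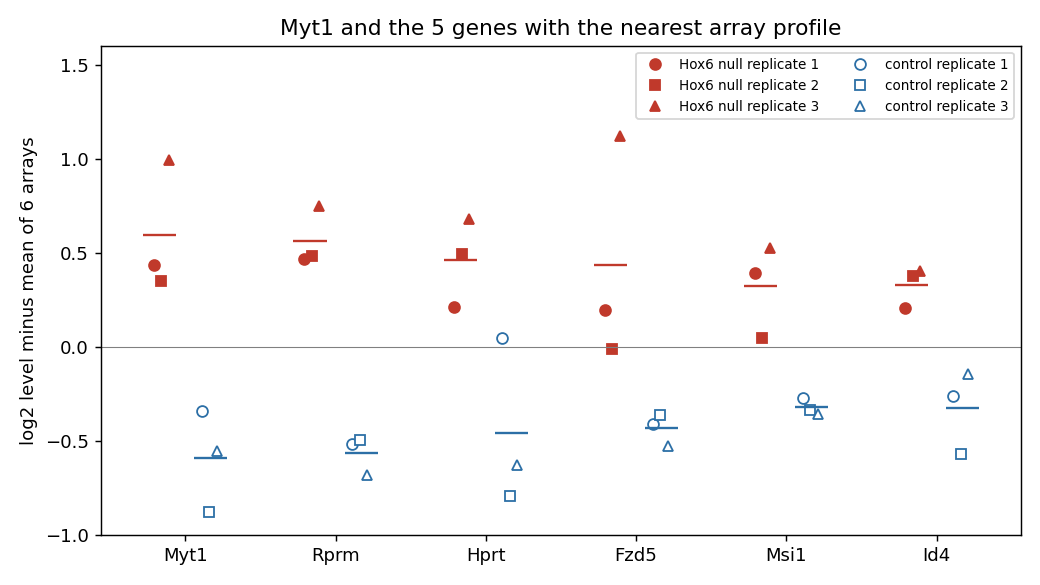
Log2 level minus the mean of all 6 arrays (vertical axis) for Myt1 and the 5 genes with the nearest profile, with Hox6 null arrays filled and left of the open control arrays and bars at the mean of 3 arrays. Null replicate 3 is the highest array for each gene, which the choice of genes by likeness favours, and control replicate 2 is the lowest for Myt1, Hprt and Id4.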

How the data were processed

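Per the labels, total RNA of E12.5 pancreas was amplified from a small input with the NuGEN WT-Pico Ovation kit and labelled with biotin for arrays. The authors deposited log2 values per probe set, and the submitters' processing notes name RMA, affy and limma without versions. RMA normalizes the arrays against each other, and dim probe sets lie near background, where differences are less certain. The number of arrays limits the precision.

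Gene names came from the platform annotation. Genotype was fitted with limma 3.58.1 in R 4.3.3 (lmFit, eBayes, two-sided, Benjamini-Hochberg, threshold 0.05) over 45037 probe sets without array controls, and over 18193 genes by their probe set with the highest mean. Family values come from the first fit, and lists, covariate and left-out arrays from the second unless a probe set is named. P-values measure the spread between samples that the labels call biological replicates; an exact test of 3 against 3 samples cannot go below 0.1. The procedure was tested on simulated data.

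The members, the 10 lists and the alternatives were chosen with earlier results of these data known. Named were all member probe sets, the 5 genes nearest to Myt1, up to 4 genes per list by smallest p, and Neurog3, Neurod1 and Insm1. Sin3b, Hes1, Hes5, Pou3f3, Rest, Isl1, Runx1t1, Barx1 and Foxf1 were named after their values were seen. List genes without a probe set of their own were not analysed here. Promoter sequences are RefSeq's (GRCm38.p6), for Myt1 and Myt1l.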

Additional observations from a re-analysis of the deposited data

How the results depend on the processing

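By gene, all 3 members kept a positive difference in the 14 alternatives wherever they were measured; with the dimmer probe sets left out none of them entered the gene fit. Values that moved by more than the replicate SD were Myt1 with the epithelial covariate (1.57), St18 with it (0.0228), and Myt1l with it (0.32), with the mean over probe sets (0.20) and after repeated quantile normalization (0.27). Leaving out single arrays gave 0.98 to 1.31 for Myt1, 0.36 to 0.41 for Myt1l and 0.17 to 0.62 for St18. The count of member probe sets called was 0, or 0 to 1 when an array was left out (1 without null replicate 3). The count of separated member probe sets, added after the values were seen, was 6, against 3 after quantile normalization and 6 to 7 when an array was left out. Genes called numbered 13, against 155 with array weights, 8 after median centring, 22 with the epithelial covariate, 74 with an intensity trend and robust prior, 1 after quantile normalization, 0 with the replicate block, and 0 to 1536 when an array was left out (1536 without null replicate 3). List genes called numbered 0, against 2 with array weights (Dcn and Ngfr), 1 without the dimmer probe sets (Dcn), 2 with the epithelial covariate (Pou3f3 and Tubb3), 3 with the trend and robust prior (Dcn, Lum and Twist1), and 0 to 42 when an array was left out (42 without null replicate 3). The causes were not tested. Replicate numbers were not treated as pairs in the main fit. Correlations of same-numbered deviations were 0.138, 0.00487 and 0.0619, which neither show nor exclude pairing. With the replicate block the difference of Myt1 was 1.19 ± 0.17 (SE) and 0 member probe sets were called. Dim signal limits Myt1l and 1439365_at of Myt1, which lie in the dimmest 25% of probe sets.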
